A study of Mus musculus with 7 samples.

Results

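Canonical transient receptor potential (TRPC) channels and the STIM and ORAI proteins of store-operated calcium entry were examined in ribosome-bound RNA from kisspeptin cells of the mouse AVPV, the anteroventral periventricular nucleus of the preoptic area. The members were the 9 genes Trpc1, Trpc4, Trpc5, Trpc6, Trpc7, Stim1, Stim2, Orai2 and Orai3, taken by symbol from the 55384 genes of the table, and all 9 passed the filter on low counts that left 18282 genes for testing. The 3 E2 libraries came from females treated with estradiol, and the 4 GDX libraries from ovariectomized females that received none. All 7 libraries came from C57BL/6 mice of the genotype Kiss1Cre+/Rpl22HA+/+, in which Cre driven by Kiss1 puts an HA tag on the ribosomal protein Rpl22, so that tagged ribosomes can be pulled down from tissue punches. Each library was a pool of 4 brains, and the dose and duration of estradiol and the ages of the animals were not given in the sources used here. Whether the E2 females were also ovariectomized was not given either, so estradiol treatment and the state of the ovaries cannot be told apart in the comparison of E2 with GDX. The comparison addresses which RNAs pulled down with tagged ribosomes differ in level between E2 and GDX libraries. It does not separate translation from the level of the RNA.

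TRPC channels are cation channels of the cell membrane that pass sodium and calcium and depolarise the cell when a receptor coupled to Gq activates phospholipase C. TRPC1 assembles with TRPC4 and TRPC5, whereas TRPC6 and TRPC7 belong to a subfamily that diacylglycerol opens directly. When the calcium store of the endoplasmic reticulum empties, STIM proteins in its membrane sense the loss and open ORAI channels in the cell membrane, which refills the store. In hypothalamic kisspeptin neurons, TRPC currents are known as a route by which peptides and leptin depolarise the cell.

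Estradiol was accompanied by higher levels of 2 of the 9 genes. Trpc7 averaged 39.9 ± 2.23 CPM, which are counts scaled to a common library size, in E2 libraries (SD, n = 3) and 27.8 ± 3.35 CPM in GDX libraries (SD, n = 4), and Stim2, a sensor of the calcium store, averaged 70.2 ± 3.77 CPM in E2 and 51.0 ± 1.91 CPM in GDX libraries. The other 7 members did not pass, among them Stim1, the close relative of Stim2, and Trpc5. Genes were called changed at an adjusted p under 0.05 in edgeR's quasi-likelihood test with Benjamini-Hochberg adjustment over all genes tested. By that rule 3.88% of all tested genes were called, 2.55% as higher and 1.33% as lower in E2. That split, 467 higher and 243 lower, was 385 and 352 with library sizes alone as scaling. The median log2 fold change, E2 over GDX, was 0.044 for the 9 members and 0.0040 for all genes tested. No member was called lower by edgeR, DESeq2 or limma-voom. At an unadjusted p under 0.05 in edgeR, 2 members, Trpc4 and Orai3, were lower. In either direction 4 of the 9 members passed that threshold, as did 16.8% of all tested genes. The members were chosen with earlier results of these data known, so these shares are a description only. No member was called when a score of non-neuronal markers, described next, entered the fit, nor without E2 replicate 1. Without GDX replicates 1 and 4, the libraries with the highest score, 1 member was called, which was Stim2.

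The deposited libraries held 30929883 to 33438199 expected counts in E2 and 29207544 to 36213127 in GDX. The defining genes of the cell type were present in every library, with Kiss1 at 379 to 485 CPM in E2 and 44.5 to 113.5 CPM in GDX libraries. Of 7 such markers 4 were called higher in E2 and 0 lower, where 2.55% of all tested genes were called higher. Esr1, another of the 7, went the other way without passing, at 183 to 214 CPM in E2 and 210 to 292 CPM in GDX libraries (adjusted p = 0.090). Of 5 neuron markers 1 was called, Elavl4, which was higher in E2 (log2 fold change 0.51, adjusted p = 0.00392). RNA of other cell types was also present, and the summed astrocyte, endothelial and ependymal markers were higher in every GDX library than in any E2 library. The summed level of 7 astrocyte markers was 848 to 981 CPM in E2 and 1121 to 3146 CPM in GDX, that of 5 endothelial markers 93.9 to 156 CPM in E2 and 162 to 408 CPM in GDX, and that of 6 oligodendrocyte markers 2557 to 3074 CPM in E2 and 2758 to 5728 CPM in GDX. The oligodendrocyte sums overlapped between the groups, as did those of 6 microglial markers, at 62.8 to 84.9 CPM in E2 and 59.6 to 77.7 CPM in GDX. The sum of 4 ependymal markers was 24.9 to 50.1 CPM in E2 and 51.0 to 99.0 CPM in GDX, also without overlap, and 1 of them, Rarres2, fell in E2 (log2 fold change −1.03, adjusted p = 0.0357). None of these markers was at 0 in all libraries. Taken singly, 3 of the 7 astrocyte, 2 of the 5 endothelial and 2 of the 4 ependymal markers did not overlap between the groups. No astrocyte or endothelial marker was called. Gfap, an astrocyte marker, was 163 to 203 CPM in E2 and 313 to 1765 CPM in GDX libraries, so the astrocyte sums depend much on this gene. A score over the 24 astrocyte, endothelial, oligodendrocyte and microglial markers, their mean log2 CPM, which leaves out the ependymal ones, was 5.44, 5.61 and 5.68 in the E2 libraries, against 6.48, 5.84, 5.73 and 6.28 in the GDX libraries 1 to 4. The score did not overlap between the groups and was highest in GDX replicates 1 and 4, so its part in a difference and that of estradiol cannot be told apart. In pooled tissue, fewer cells of a type and less RNA per cell cannot be told apart either.

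The levels of the members were compared with each other per length, as CPM per kb of the union of a gene's annotated exons, averaged over all 7 libraries. Stim1 was the highest at 13.5 ± 0.60 CPM per kb (SD, n = 7), which exceeded 78.5% of all tested genes. Stim2 followed at 11.5 ± 2.06, Orai2 at 8.68 ± 0.64, Trpc7 at 8.51 ± 1.80 and Orai3 at 7.26 ± 1.26 CPM per kb. In this upper group each gene's range over the libraries overlapped that of the next gene in the order. By this length a gap separated Orai3, with a lowest value of 5.42 CPM per kb, from Trpc1, with a highest value of 3.32 CPM per kb. Trpc1 averaged 3.04 ± 0.25 and Trpc5 2.72 ± 0.52 CPM per kb, with overlapping ranges. Trpc4, at 1.51 ± 0.22 CPM per kb, lay below the range of Trpc5, and Trpc6, at 0.513 ± 0.092 CPM per kb, lay below that of Trpc4.

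**Figure D1:**
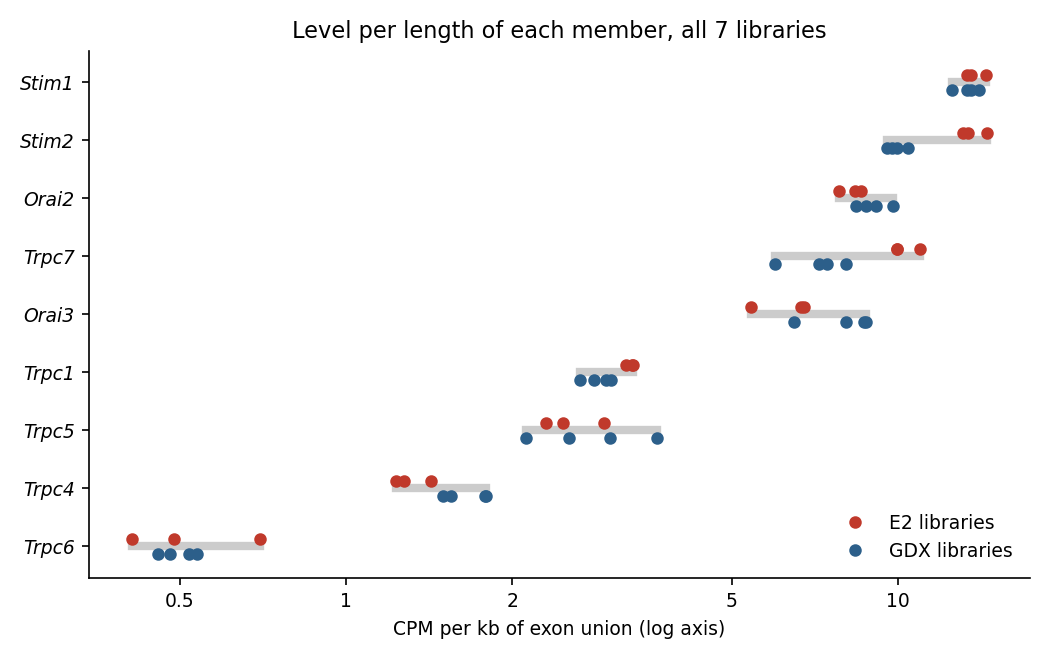
Level per length of the 9 members in each library, in CPM per kb of exon union on a log axis. Red points are E2 libraries, blue points GDX libraries, and grey bars span all 7 libraries. By this length Trpc7 is the only TRPC member in the upper group with STIM and ORAI genes, and Trpc6 lies lowest. With the longest transcript no gap sets that group apart from Trpc1.

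The order of some members depended on the length used. With the longest annotated transcript in place of the exon union, Stim1 averaged 32.2, Orai2 13.2, Trpc1 5.35, Trpc4 3.49, Trpc5 3.28 and Trpc6 0.798 CPM per kb. In these means over all 7 libraries, Orai2 passed Stim2, and Trpc4 passed Trpc5. The gap between Orai3 and Trpc1 was not kept. Trpc1 averaged 5.35 ± 0.445 CPM per kb by the longest transcript, beside a lowest value of 5.42 for Orai3, whose length was the same by either measure. Within libraries at that length, Stim2 exceeded Orai2 in 3 of 3 E2 and 0 of 4 GDX libraries, so their order differed between the groups. Trpc5 exceeded Trpc4 in 1 of 3 E2 and 2 of 4 GDX libraries. In the means over all 7 libraries, Stim1 stayed first and Trpc6 last with either length. Within libraries, per kb of exon union, Stim1 exceeded Stim2 in 2 of 3 E2 and 4 of 4 GDX libraries. Trpc7 exceeded every other TRPC member with either length, and in each of the 7 libraries it exceeded Trpc1, the next of them. Per kb of exon union, Trpc7 exceeded Orai2 and Orai3 in 3 of 3 E2 libraries and in 0 of 4 GDX libraries. With the longest transcript Trpc7 exceeded Orai2 in 0 of 3 E2 and 0 of 4 GDX libraries. It exceeded Orai3 in 3 of 3 E2 and 3 of 4 GDX libraries, so neither order of Trpc7 separated the groups with that length.

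**Figure D2:**
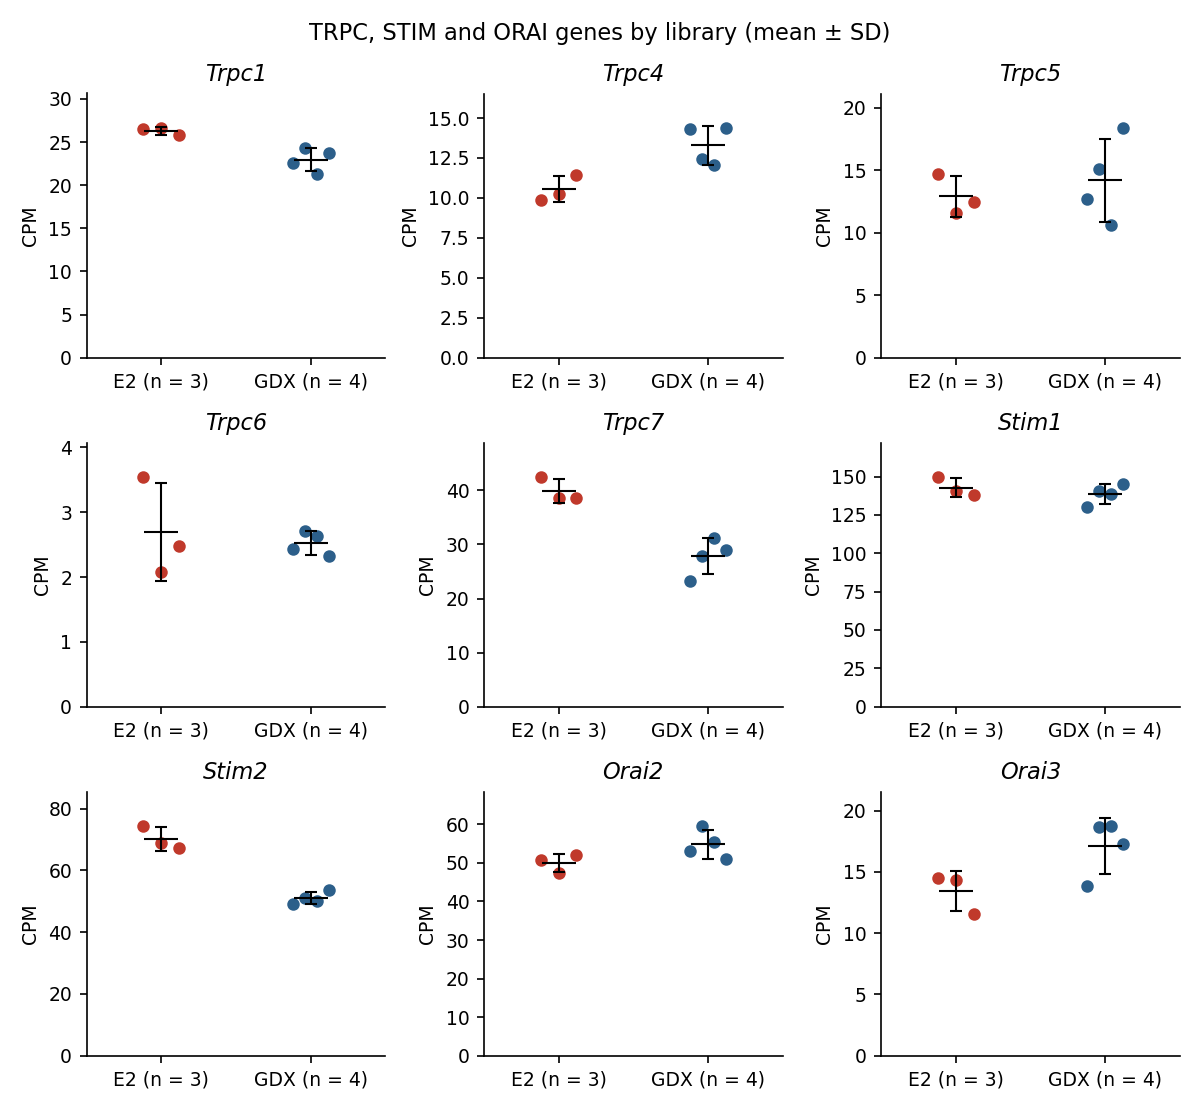
CPM of each member by library, with E2 libraries in red and GDX libraries in blue, and black marks for the mean and SD of each group. The groups do not overlap for Trpc1, Trpc4, Trpc7 and Stim2, and they overlap for the other 5 members.

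Of Trpc1, Trpc4 and Trpc5, whose products assemble with each other, none passed, and the log2 fold changes of Trpc1 and Trpc4 had opposite signs. Trpc1 was 26.5, 26.6 and 25.8 CPM in the E2 libraries, against 22.6, 24.3, 21.3 and 23.7 CPM in the GDX libraries. Every E2 library was above every GDX library, but with a log2 fold change of 0.20 ± 0.10 Trpc1 missed the threshold (adjusted p = 0.355). Trpc4 was 9.89, 10.3 and 11.5 CPM in the E2 libraries, against 14.3, 12.4, 12.1 and 14.4 CPM in the GDX libraries. Here every E2 library was below every GDX library, and the log2 fold change of −0.34 ± 0.14, with a 95% interval from −0.65 to −0.025, did not pass either (adjusted p = 0.255). The groups did not overlap for 4 of the 9 members and for 16.5% of all tested genes.

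Trpc5, the channel most often linked to depolarisation of kisspeptin neurons, was 14.7, 11.6 and 12.4 CPM in E2 libraries, against 12.7, 15.1, 10.6 and 18.4 CPM in GDX libraries. The GDX libraries spread around the E2 libraries on both sides, with GDX replicate 4 highest and GDX replicate 3 lowest of all 7. The log2 fold change was −0.14 ± 0.19 (adjusted p = 0.796), with a 95% interval from −0.55 to 0.27, and it was 0.013 without GDX replicate 4. Between Trpc5 and Trpc4, the log2 ratio of CPM within a library averaged 0.29 ± 0.25 in E2 and 0.069 ± 0.29 in GDX libraries (SD, n = 3 and 4). The difference of 0.22 lay within the spread of each group (two-sided exact permutation test over 35 splits, p = 0.314, adjusted p = 0.314 over 3 ratios).

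Of Trpc6 and Trpc7, which share a subfamily, Trpc7 rose. Trpc7 (ENSMUSG00000021541, chromosome 13, 56773113 to 56895993, minus strand, GRCm38) was 42.5, 38.6 and 38.6 CPM in the E2 libraries, against 23.3, 27.9, 31.2 and 28.9 CPM in the GDX libraries. All E2 libraries lay above all GDX libraries, and the lowest value was in GDX replicate 1. The log2 fold change was 0.52 ± 0.11, a 1.43-fold difference, with a 95% interval from 0.28 to 0.76 and an adjusted p of 0.0217. Leaving out any E2 library, or GDX replicate 1 or 2, ended the call at log2 fold changes of 0.44 to 0.54 (adjusted p = 0.0540 to 0.135). It was also lost when the non-neuronal score entered the fit (0.32, adjusted p = 0.515) and without GDX replicates 1 and 4 together (0.43, adjusted p = 0.0527).

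Trpc6 was 3.55, 2.08 and 2.48 CPM in the E2 libraries, against 2.43, 2.72, 2.64 and 2.32 CPM in the GDX libraries. This rested on 63 to 115 counts per library, the fewest of any member, and E2 replicate 1 was the highest library and E2 replicate 2 the lowest. The log2 fold change of 0.098 ± 0.29 had a 95% interval from −0.53 to 0.72 (adjusted p = 0.912), and it was −0.15 without E2 replicate 1. Of the different 50-base words in the annotated transcripts of Trpc6, 3.79% also occur in transcripts of other genes, against 0.262% or less for the other 8 members, so a small part of its counts can be divided uncertainly. No exon of any of the 9 members overlaps an exon of another annotated gene.

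Among the summed levels of the 5 TRPC members per kb of exon union, Trpc7 made up 56.7% to 57.7% in E2 and 44.1% to 54.2% in GDX libraries. The share of Trpc4 was 6.44% to 8.13% in E2 and 10.1% to 13.1% in GDX libraries. The shares of Trpc7 and Trpc4 did not overlap between the groups, whereas those of the other 3 did. Trpc2, known in mice as the channel of pheromone-sensing neurons, was at 0 counts in 5 of the 7 libraries and reached 2.61 CPM in GDX replicate 3. Of the 50-base words in its transcripts, 98.3% also occur in those of Xntrpc or Xndc1, which leaves its value uncertain.

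**Figure D3:**
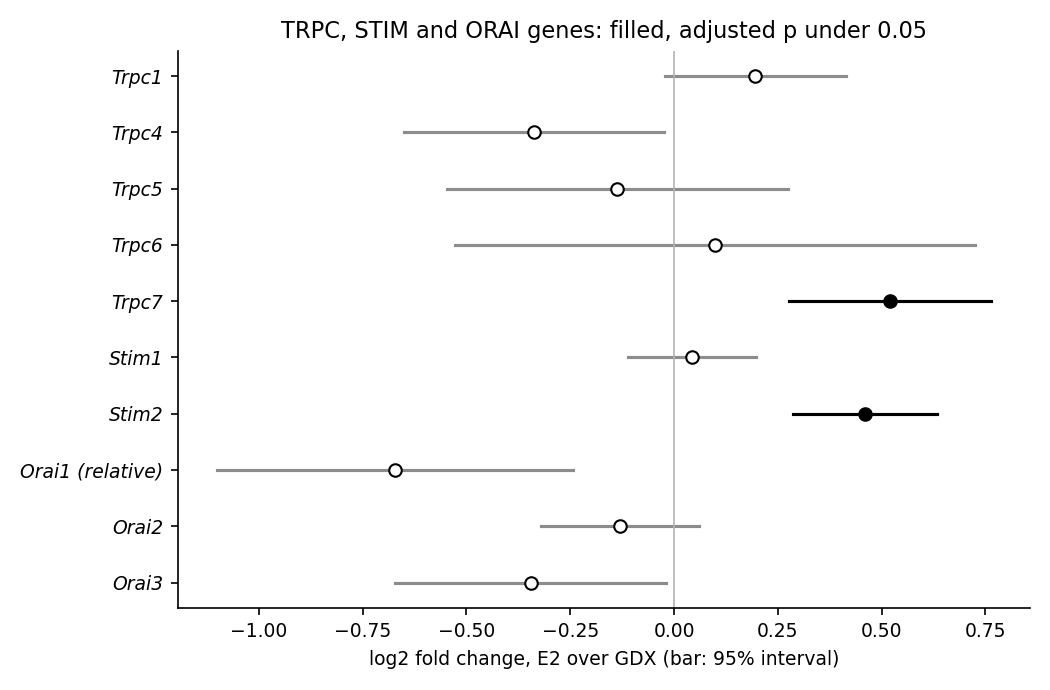
Log2 fold change, E2 over GDX, of the 9 members and of their relative Orai1, with 95% intervals. Filled points passed an adjusted p under 0.05, namely Trpc7 at 0.52 and Stim2 at 0.46, and Stim1 lies at 0.044.

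Of the STIM genes, Stim2 rose and Stim1 did not pass. Stim2 (ENSMUSG00000039156, chromosome 5, 53998499 to 54121057, plus strand, GRCm38) encodes the store sensor known to react to small losses of calcium. It was 74.4, 68.8 and 67.3 CPM in the E2 libraries, against 49.1, 51.1, 50.1 and 53.6 CPM in the GDX libraries. The lowest E2 library was above the highest GDX library, and the log2 fold change was 0.46 ± 0.079, a 1.38-fold difference, with a 95% interval from 0.29 to 0.63 and an adjusted p of 0.00607. The call was lost without E2 replicate 1 (0.42, adjusted p = 0.0522) and when the non-neuronal score entered the fit (0.44, adjusted p = 0.130), and it was kept in the other 16 alternatives.

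Stim1 (ENSMUSG00000030987, chromosome 7, 102267806 to 102437319, plus strand), the main sensor of store depletion in many cells, was 149.8, 141 and 138 CPM in the E2 libraries, against 129.9, 141, 139 and 145 CPM in the GDX libraries. The groups overlapped, and the log2 fold change was 0.044 ± 0.070 (adjusted p = 0.834) with a 95% interval from −0.11 to 0.20. The ratio of Stim2 to Stim1 counts within a library averaged 0.491 in E2 and 0.368 in GDX libraries. On the log2 scale the ratio was −1.01, −1.03 and −1.04 in the E2 libraries, against −1.40, −1.46, −1.47 and −1.44 in the GDX libraries. The difference of 0.42 exceeded the SD of 0.015 in E2 and of 0.029 in GDX libraries. It reached the smallest p that 35 splits can give (two-sided exact permutation test, p = 0.0286), and adjusted over the 3 ratios it did not pass (adjusted p = 0.0857). With these splits no ratio can pass after adjustment unless another also reaches the smallest p. The adjusted test therefore does not decide whether this balance differed. Per kb of exon union, Stim2 made up 49.6% to 50.1% of the STIM sum in E2 and 42.2% to 43.3% in GDX libraries. This near balance depends on the length, since with the longest transcript the mean level of Stim1 over all 7 libraries was 32.2 in place of 13.5 CPM per kb, that of Stim2 moved by less than its SD, and Stim1 exceeded Stim2 in 3 of 3 E2 and 4 of 4 GDX libraries.

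**Figure D4:**
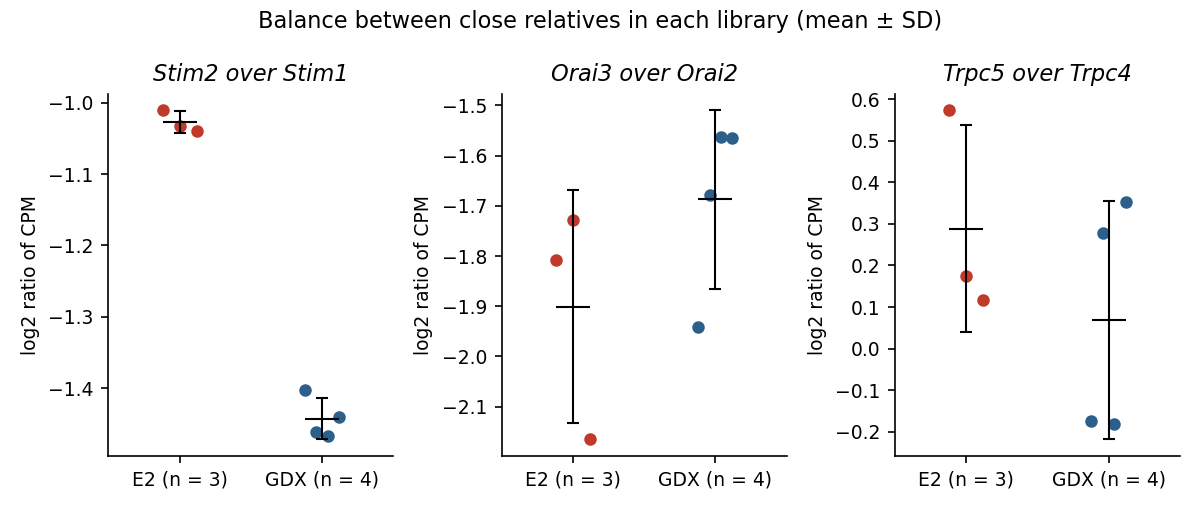
Log2 ratio of CPM within each library for 3 pairs of close relatives, with E2 libraries in red and GDX libraries in blue, and black marks for the mean and SD. The ratio of Stim2 to Stim1 separates the groups with little spread inside either, whereas the ratios of Orai3 to Orai2 and of Trpc5 to Trpc4 overlap.

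The start regions of the 2 genes that rose, and of Stim1 for comparison with Stim2, are shown because the first 2 were the called members and Stim1 was not called. The windows run from 250 bases before to 50 bases after the start of the gene in the RefSeq annotation of GRCm38.p6, are printed 5′ to 3′ on the strand of the gene, and have matches to the GC box GGGCGG, on either strand, in capitals.
Trpc7, chr13:56895740-56896039, minus strand: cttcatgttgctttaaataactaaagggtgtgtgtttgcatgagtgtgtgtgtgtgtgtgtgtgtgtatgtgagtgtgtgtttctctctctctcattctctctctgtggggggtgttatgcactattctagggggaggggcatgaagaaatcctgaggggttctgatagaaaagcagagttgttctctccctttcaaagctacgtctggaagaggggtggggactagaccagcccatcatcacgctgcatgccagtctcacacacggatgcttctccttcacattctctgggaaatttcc
Stim2, chr5:53998273-53998572, plus strand: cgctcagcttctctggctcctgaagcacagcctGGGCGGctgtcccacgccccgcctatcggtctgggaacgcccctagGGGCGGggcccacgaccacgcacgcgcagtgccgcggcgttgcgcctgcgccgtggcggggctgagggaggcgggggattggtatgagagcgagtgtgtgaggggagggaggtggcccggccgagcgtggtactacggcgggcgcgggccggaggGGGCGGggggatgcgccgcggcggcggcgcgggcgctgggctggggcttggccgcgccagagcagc
Stim1, chr7:102267569-102267868, plus strand: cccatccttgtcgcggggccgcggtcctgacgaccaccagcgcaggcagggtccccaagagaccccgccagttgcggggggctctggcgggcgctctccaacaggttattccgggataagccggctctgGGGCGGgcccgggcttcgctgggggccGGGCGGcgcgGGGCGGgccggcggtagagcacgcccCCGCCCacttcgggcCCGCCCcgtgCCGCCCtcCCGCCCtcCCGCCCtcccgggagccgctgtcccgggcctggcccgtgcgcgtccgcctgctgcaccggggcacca
The windows of Stim2 and Stim1 were alike in composition, with 76.7% and 78.7% G and C and with 39 and 38 CpG sites, against a median of 52.7% and 7 sites over 32851 such windows of all genes. That of Trpc7 held 48.0% G and C and 3 CpG sites, among long runs of alternating G and T. Stim2 held 3 GC boxes, Stim1 held 8 and Trpc7 none, where 35.7% of all windows held at least 1.

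All 9 members matched a window, and the letters of estrogen response elements were also searched in them. The full palindromic estrogen response element, which is GGTCA and its reverse complement around 3 free bases, was in none of the 9 and in 0.0700% of all windows. Its unit GGTCA on either strand, which also occurs inside the palindrome, was in 3 of the 9, those of Orai2, Orai3 and Trpc5, and in 40.5% of all windows. The letters of the AP-1 element, TGANTCA, were in none of the 9 and in 7.81% of all windows, and those of the cyclic AMP response element, TGACGTCA, in none of the 9 and in 1.79%. These searches describe such start windows only, and of the members' windows those of Trpc7, Stim2 and Stim1 are printed.

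Neither ORAI member passed the test. Orai2, whose product forms calcium channels with other ORAI proteins, was 50.7, 47.4 and 52.0 CPM in the E2 libraries, against 53.2, 59.6, 55.4 and 51.0 CPM in the GDX libraries. The groups overlapped, with a log2 fold change of −0.13 ± 0.087 (adjusted p = 0.508). Orai3, a gene known only in mammals, was 14.5, 14.3 and 11.6 CPM in the E2 libraries, against 13.9, 18.6, 18.7 and 17.2 CPM in the GDX libraries. GDX replicate 1 lay among the E2 libraries and the other GDX libraries lay above them, and the log2 fold change was −0.35 ± 0.15 (adjusted p = 0.266), with a 95% interval from −0.67 to −0.019. The log2 ratio of Orai3 to Orai2 averaged −1.90 ± 0.23 in E2 and −1.69 ± 0.18 in GDX libraries (two-sided exact permutation test, n = 3 and 4, p = 0.200, adjusted p = 0.300 over 3 ratios).

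Orai1, the best known pore gene and not among the 9 members, was 4.87, 4.48 and 5.75 CPM in the E2 libraries, against 8.32, 7.01, 7.45 and 9.33 CPM in the GDX libraries. Its groups did not overlap, yet with a log2 fold change of −0.67 ± 0.20 it missed the threshold (adjusted p = 0.0926). Per kb of exon union it averaged 2.19 ± 0.28 in E2 and 3.50 ± 0.45 in GDX libraries, and it was below Orai2 and Orai3 in all 7 libraries with either length. Its 2 highest values were in GDX replicates 4 and 1, the libraries with the highest score of non-neuronal markers, whose part in the difference was not tested.

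Genes on the path around these channels were read from 6 lists by role. Of 81 tested genes, each counted once, 3 rose and 1 fell, a share close to the background of 3.88%, and their median log2 fold change was −0.019. The 4 lists around the phospholipase C path, the store, the pumps and the regulators are described here. None of 15 genes of phospholipase C signalling was called by edgeR, where 3 were lower at an unadjusted p under 0.05, DESeq2 called 3 lower and limma-voom 1. Of all 18282 tested genes, DESeq2 called 725 lower and limma-voom 398, and 16.8% had an unadjusted p under 0.05 in either direction by edgeR. The smallest p of that list was that of Plcd4, a phospholipase C gene, at 21.1 ± 1.70 CPM in E2 and 29.6 ± 4.54 CPM in GDX libraries (adjusted p = 0.0706). Plcd4 shares 2101 bp of exons with Zfp142 on the opposite strand, and libraries without strand information cannot separate the reads of this pair. The Gq gene Gnaq did not pass, at 161 ± 8.67 CPM in E2 and 162 ± 13.2 CPM in GDX libraries (adjusted p = 0.968).

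Of 6 genes that release calcium from the store, 1 fell. Itpr3, an inositol trisphosphate receptor gene, was 6.23, 6.76 and 7.23 CPM in the E2 libraries, against 15.95, 13.7, 9.23 and 22.0 CPM in the GDX libraries (log2 fold change −1.17 ± 0.25, adjusted p = 0.0260). The values in GDX were highest in replicates 4 and 1, as was the score of non-neuronal markers. The call was lost with that score as a covariate (−0.57, adjusted p = 0.547), without GDX replicate 1 or any E2 replicate (adjusted p = 0.0738 to 0.141), with the replicate block (adjusted p = 0.0544) and without GDX replicates 1 and 4 together (−0.77, adjusted p = 0.0709). The median log2 fold change of the 6 genes was 0.20, opposite in sign to that of Itpr3.

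Among 19 tested calcium pump and exchanger genes 1 rose. Slc8a3, a sodium-calcium exchanger gene, was 67.9, 62.1 and 68.8 CPM in the E2 libraries, against 46.0, 52.1, 51.7 and 51.0 CPM in the GDX libraries (log2 fold change 0.40 ± 0.084, adjusted p = 0.0190). The call depended on E2 replicates 1 and 3 and GDX replicate 1, without which it was lost (adjusted p = 0.0697 to 0.115), with the covariate (0.378), with the replicate block (0.0513) and without GDX replicates 1 and 4 together (0.0615). Atp2a2, the pump that fills the store, was 509 ± 29.1 CPM in E2 and 519 ± 78.5 CPM in GDX libraries (adjusted p = 0.937). No edgeR call was made among 12 regulators of store-operated entry, where DESeq2 and limma-voom also called 0. Before adjustment 3 of the 12 had an edgeR p under 0.05 in either direction, as did 16.8% of all tested genes. The smallest p there was that of Cracr2b, a gene of a regulator of ORAI channels, at 1.76 ± 0.21 CPM in E2 and 3.46 ± 1.20 CPM in GDX libraries (adjusted p = 0.151), and 1405 bp of its exons overlap Gm10575 on the opposite strand. Saraf, which slows store-operated entry, was the most abundant of that list by CPM, at 680 ± 12.6 CPM in E2 and 604 ± 35.4 CPM in GDX libraries (adjusted p = 0.206).

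**Figure D5:**
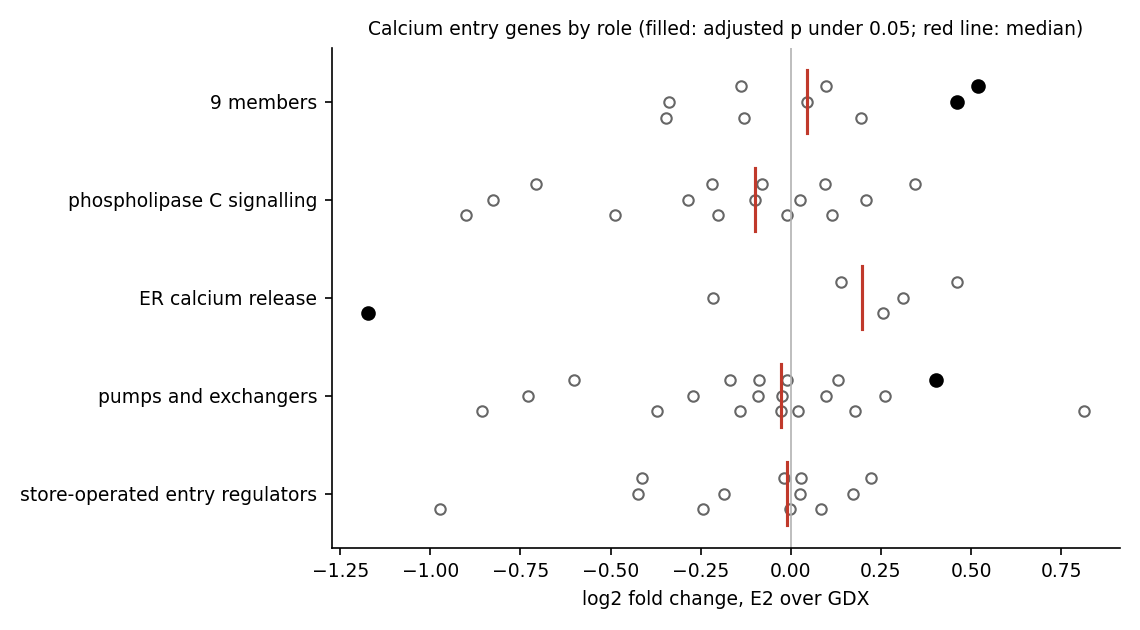
Log2 fold change, E2 over GDX, of the members and of the tested genes of 4 lists, with 1 point per gene and the list's median as a red line. Filled points passed an adjusted p under 0.05, and the medians of the lists lie between −0.10 and 0.20.

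The genes with the profile most like that of a member were those with the smallest root mean square difference in log2 CPM, each centred on its own mean, over the 7 libraries among 11622 genes of at least 5 CPM. Likeness here includes the difference between the groups, so it is a description only. Nearest to Trpc7 were B4galt6, a glycolipid synthesis gene, Lrpap1, which encodes a receptor chaperone, and Kcnk2, a potassium channel gene, at 0.056 to 0.072. Nearest to Stim2 were Negr1, a neuronal adhesion gene, and Prkacb, a catalytic subunit gene of protein kinase A, at 0.036 and 0.037. Nearest to Trpc5 were Sh3d19, Dnmbp and Jmjd1c, at 0.080 to 0.085. Nearest to Stim1 were Insig2, Hnrnpu and Armc8, at 0.021 to 0.029.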

How the data were processed

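The authors deposited expected counts per gene, of which 33.1% of those above 0 were fractional (exact comparison). The submitters' processing notes name Trimmomatic 0.38, STAR 2.6.0a, RSEM 1.3.0 and the build mm10, without role or order. Which annotation was used is not given in the sources used here. Libraries were unstranded and selected for polyadenylated RNA, per the labels' protocols. GENCODE vM21 on GRCm38 gave symbols, exons and lengths, and 55203 of 55384 identifiers matched.

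Expected counts were rounded and tested in R 4.3.3 with edgeR 4.0.16 (quasi-likelihood, robust, TMM factors, filterByExpr with a minimum count of 10 and total of 15). CPM use TMM-scaled library sizes. Log2 fold changes use a prior count of 0.125, are followed by their standard error, which is the fold change over the square root of F, and were checked on simulated data. The members, lists and tests were chosen with earlier results of these data known. Named were all members, Trpc2 and Orai1, each list's changed genes or else that with the smallest p, and the nearest profiles, of which some genes, and with them 2 of the lists, are not reported here. Gnaq, Atp2a2 and Saraf were added after their values were seen. Alternatives used DESeq2 1.42.0, limma 3.58.1, other scalings and filters, a non-neuronal covariate, a replicate block and left-out libraries. Libraries of a group differed by more than sampling noise (mean chi-square per gene of at least 14.3). The p-values measure spread between pools.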

Additional observations from a re-analysis of the deposited data

How the results depend on the processing

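The 2 members called changed became 0 with the non-neuronal covariate, and 1, Stim2, at an adjusted p under 0.01 and without GDX replicates 1 and 4 together, a choice made after the data were seen. Leaving out each library in turn gave 0 to 2 members, 364 to 974 changed genes (710 with all libraries) and 2 to 9 changed pathway genes (4 with all). All changed genes numbered 1609 without a low-count filter, 1400 with DESeq2, 1082 with limma-voom, 318 with the covariate and 360 at an adjusted p under 0.01. The pathway genes numbered 14, 13, 6, 2 and 2 in the same order. The share of rises was 65.8% among the 710 genes, 44.9% without the filter, 48.2% with DESeq2, and 52.2% with library sizes alone, also chosen after the data were seen. Trpc7 and Stim2 kept their direction in all 18 alternatives, as did Trpc1, Trpc4, Orai2 and Orai3. Trpc5 was positive in 3, Trpc6 negative in 2 and Stim1 negative in 2. Levels per kb moved with the longest transcript to 32.2 for Stim1, 13.2 for Orai2, 5.35 for Trpc1, 3.49 for Trpc4, 3.28 for Trpc5 and 0.798 for Trpc6. Their causes were not tested, except that length itself changes a level per kb.

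Deviations of same-numbered libraries from their group means correlated at −0.055 to −0.020 across genes, and those of differently numbered libraries at −0.057 to 0.042. No pairing by replicate number was seen in these values, which cannot show how the libraries were prepared. With the replicate block, which drops GDX replicate 4, 627 genes, 2 members and 3 pathway genes were called, and the Stim2 to Stim1 difference was 0.42 (adjusted p = 0.75 in an exact sign-flip test, whose smallest p is 0.25). The other 2 ratios kept their direction in every alternative, at −0.30 to −0.081 for Orai3 to Orai2 and 0.076 to 0.31 for Trpc5 to Trpc4. With 1 library left out, no ratio can reach an adjusted p under 0.05.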
